A study of Mus musculus with 8 samples.

Results

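Which transcripts differ between wild-type (WT) embryos of the same nominal age was examined in the 3 WT littermate libraries of the Meis1 experiment, out of 8 libraries in the series. The members are genes, chosen by 2 columns that the authors deposited for this group: the mean over the 3 WT libraries, and the ratio of the variance seen between them to a fitted variance, called the variance ratio here. Of 18904 genes in the Meis1 table, 13098 had a WT mean of at least 20 and were ranked by the WT variance ratio. The 100 highest and the 100 lowest are described. Because this ratio chose them, its values below are a description and carry no test.

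Each library was made from messenger RNA of the whole embryo, strain C57BL/6, at embryonic day 11.5. The WT littermates are set beside 3 libraries labelled Meis1 knockout (KO), and beside a second pair from the same stage, 1 library of embryos hypomorphic for Prep1 (an allele with reduced function) and 1 of its WT littermates. The sources used here do not give the substrain, the litter of each embryo, its stage within the day, the part of Meis1 that the KO allele lacks, or whether a library holds 1 embryo or several. Nothing in the labels says that replicates came from separate litters. The p-values below weigh the difference between KO and WT against the spread between replicates, which may be partly technical.

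A mouse embryo changes fast around midgestation. Markers of early pluripotent and trunk progenitor states, such as the RNA-binding proteins Lin28a and Lin28b, decline, while liver, skin, skeleton, muscle and eye lens begin to make their own products. Lin28 proteins block the processing of let-7 microRNAs, and mature let-7 in turn represses Lin28 and a set of growth genes through short matches in their 3′ untranslated regions, so the pair acts as a developmental switch. Embryos collected on the same nominal day can differ in how far they have gone along this course.

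The deposited table gives group means only, and the whole counts behind each mean were worked back. Within a group they are named a, b and c from the smallest to the largest library, and they cannot be tied to the sample codes. In those codes 1 WT and 1 KO library carry a letter and the other 4 a plain number. WT a held 4456719 counts, WT b 4702990 and WT c 6478704, and the KO libraries held between 4434630 and 5001338 counts. The Prep1 libraries held 4000984 (WT) and 5893401 (hypomorph) counts. Levels are in CPM, counts brought to a common library total after TMM scaling for composition, which was done separately for the Meis1 and Prep1 tables, so levels set across them are approximate. WT b and KO b stood apart together in a group of genes described first. The 4 Y-linked genes ranked (Eif2s3y, Ddx3y, Uty, Kdm5d) had reads in all 6 Meis1 libraries, and Xist, the RNA of the inactive X chromosome, was at most 0.405 CPM in each of them, against 5.79 CPM in the Prep1 WT library. The targeted gene, Meis1, read 89.2, 84.1 and 108 CPM in WT a, b and c, with 82.8, 65.4 and 68.2 CPM in KO a, b and c, so its total does not check the labels.

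Across the 13098 ranked genes the median WT variance ratio was 0.362, and 95% of genes lay below 2.36. The 100 highest ran from 6.82 to 128, and their WT means ran from 21.4 to 3275. In the median gene of these 100 the highest WT library had 4.70 times the level of the lowest (with 1 CPM added to both), against 1.28 times over all ranked genes. At the edge of the group, Chd7 (6.90), Greb1 (6.87) and C1qtnf6 (6.82) were the last inside, and Nfix (6.72), Ildr2 (6.71) and Nfib (6.69) the first outside. At the minimum mean, E130203B14Rik (20.02), Rpl37 (20.03) and Macc1 (20.06) were just inside, and Gm17468 (19.99), Thrb (19.98) and Tmem28 (19.98) just outside.

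**Figure D1:**
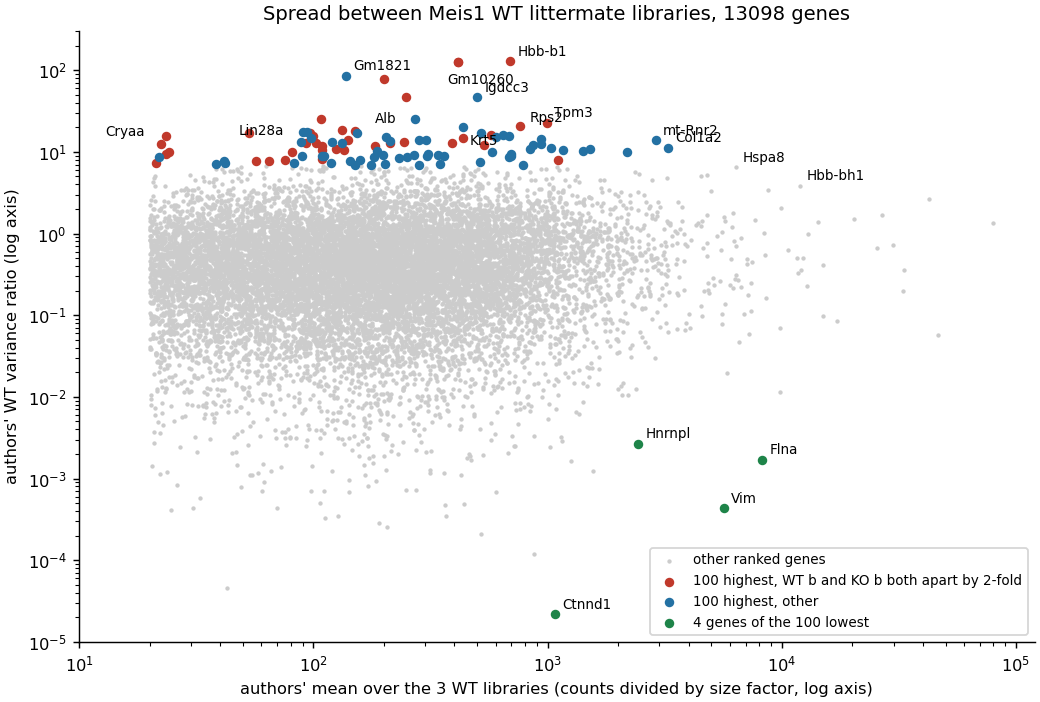
The authors' variance ratio of each gene between the 3 WT libraries (vertical log axis) against the authors' mean over them (horizontal log axis, counts divided by size factor). Grey points are the ranked genes, red and blue points the 100 highest (red where WT b and KO b were both at least 2-fold apart from the other libraries of their group), and green points 4 of the lowest. The 100 highest lie at means from 21.4 to 3275, with Hbb-b1 at 128.

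In the 100 highest, WT a or WT b was usually the library that stood apart. The library farthest from the mean of the others, on the log2(CPM + 1) scale, was a in 44 genes (lower in 35, higher in 9), b in 51 genes (higher in 27, lower in 24) and c in 5. Over all ranked genes c was farthest in 20.1%. WT c lay between a and b in 74 of the 100 genes, against a background of 50.4% of the ranked genes. They are described in turn as those in which b stood apart in both WT and KO, and those graded from a through c to b. The 2 kinds overlap, being split by a 2-fold cutoff on b. Krt14, Agtr2, Penk and Col9a3, for example, are of the first kind but have the order a, c, b in WT.

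WT b and KO b each lay at least 2-fold outside the other libraries of their own group, in the same direction. This held for 73 ranked genes, or 0.557%, with 35 higher and 38 lower in b. The rule was set after the values were seen. The other 8 pairings of a WT with a KO library gave between 0 and 15 such genes. Of the 100 highest, 38 were of this kind. The 73 genes included 15 on chromosome 2, which holds 8.48% of the ranked genes, and 12 with a Gm number for a name, against a background of 6.86%. Of 68 found in the Prep1 table, 49 were nearer to WT a and c than to WT b in both Prep1 libraries, and 4 were nearer to WT b in both.

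Hbb-b1, an adult beta globin gene, led the ranking (chromosome 7, 110975048 to 110976610 in mm9). It read 13.5, 382 and 25.4 CPM in WT a, b and c, with 20.5, 206 and 13.1 CPM in KO a, b and c. Only the b libraries were high. Its near-identical neighbour Hbb-b2 did not follow. It read 40.6, 35.5 and 109 CPM in WT a, b and c, with 119, 15.4 and 33.3 CPM in KO a, b and c. Of the 31-base words of Hbb-b1 transcripts, 54.4% also occur in Hbb-b2, so reads can be shared between them. The sum of both genes was uneven too, at 54.1 (a), 418 (b) and 134 CPM (c) for the WT libraries. For the KO libraries it was 140 (a), 222 (b) and 46.4 CPM (c). This sum was highest in the b library of each group and differed 9-fold over the WT and KO libraries together.

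Several of these genes had a near-identical copy with the opposite pattern. The pairs below were chosen after their values were seen. Among 70 of the 73 with a transcript in GENCODE M21 (build GRCm38), 15 (21.4%) shared at least 50% of their 31-base words with another gene, against a background of 4.59% of ranked genes. In the 100 highest without the shared b shift the share was 6.45%. Fabp5, a fatty acid binding protein gene, read 129, 39.9 and 156 CPM in WT a, b and c, and its copy Gm6166 read 10.3, 127 and 14.5 CPM. In KO a, b and c, Fabp5 read 136, 35.0 and 131 CPM and Gm6166 read 16.3, 120 and 15.3 CPM. Gm6166 alone differed 12.4-fold over the 6 libraries, and the sum of both genes 1.22-fold.

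Ndufs5, a subunit of respiratory complex I, read 10.5, 0.413 and 14 CPM in WT a, b and c, while its copy BC002163 read 13, 29.5 and 9.84 CPM. Their sum differed 1.48-fold over the 6 libraries. Tdg, a DNA glycosylase gene of base repair, read 36.0, 3.92 and 26.8 CPM in WT a, b and c against 7.30, 25 and 7.08 CPM for its copy Gm9855, and the sum of that pair differed 1.5-fold. Tpm3, a tropomyosin gene, read 309, 46.9 and 253 CPM in WT a, b and c, with 200, 53.7 and 264 CPM in KO a, b and c, and its sum with Tpm3-rs7 differed 2.07-fold.

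In other pairs the sum remained uneven. Gm10260 read 0, 251 and 0.154 CPM in WT a, b and c, with 0.233, 179 and 0.198 CPM in KO a, b and c, and 79.1% of its words occur in Rps18, a ribosomal protein gene. Rps18 was low where Gm10260 was high (30.6, 1.24 and 34.5 CPM in WT), but the sum of both was 253 CPM in WT b and 34.6 CPM or less in WT a and c. Gm17290 overlaps Gm10260 on the opposite strand and has the same values, so 1 signal counts under both names. Rps2, another ribosomal protein gene, read 227, 13.8 and 227 CPM in WT a, b and c, with 344, 11.1 and 234 CPM in KO a, b and c. Its best copy in the table, Rps2-ps13, was at 1.62 CPM or less in every library.

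Gm1821 was high in WT b alone, at 1.60, 81.6 and 1.08 CPM in WT a, b and c, with 0.700, 0.810 and 1.59 CPM in the KO libraries. Of its words, 86.3% occur in Ubb, a ubiquitin gene that read 274, 244 and 280 CPM in WT. Their sum differed 1.39-fold over the 6 libraries and was highest in WT b, at 325 CPM. Ubb makes up most of that sum and was itself even, so the small fold does not show traded reads in this pair. Because the genes in these pairs can trade reads, their ranks are uncertain as ranks of single genes.

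**Figure D2:**
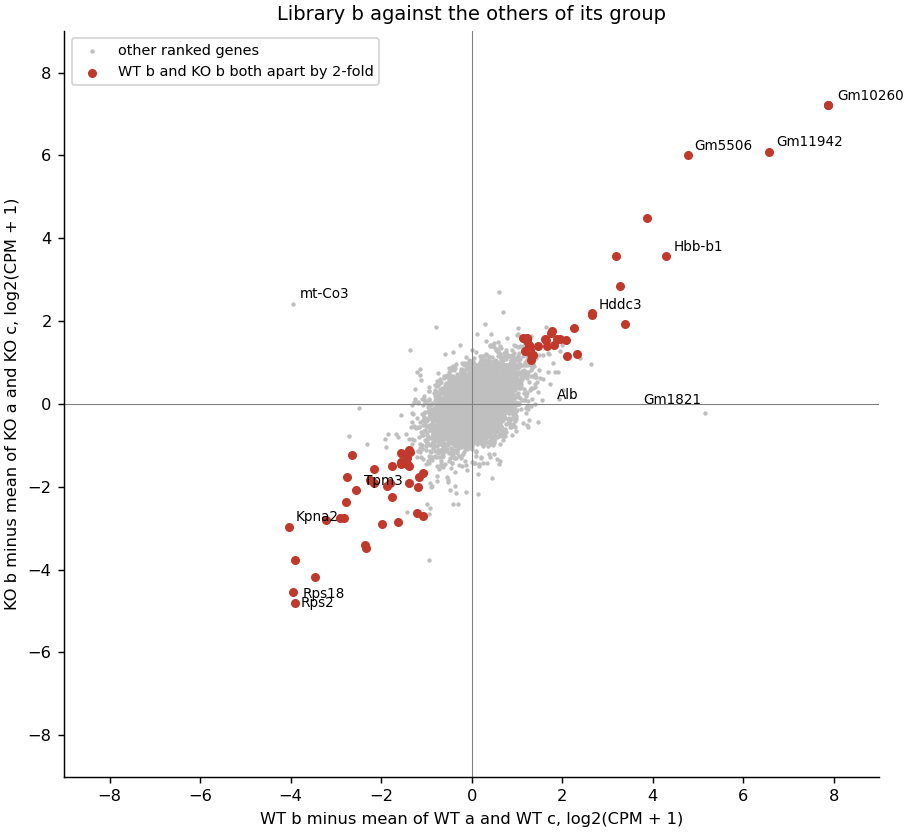
Position of library b against the other libraries of its group, on the log2(CPM + 1) scale, for WT (horizontal axis) and KO (vertical axis). Each point is a ranked gene, and the 73 red points are those at least 2-fold outside in both groups. Red points lie along the diagonal, while Gm1821 lies apart in WT only and mt-Co3 in opposite directions.

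Other genes were graded from a through c to b, or the reverse. Of the 62 genes of the 100 highest without the shared b shift, 35 had the order a, c, b from lowest to highest (background 23.8%) and 14 the order b, c, a (background 26.6%). The KO libraries, which the ranking did not use, were graded in the same genes too, most often with KO b at the same end as WT b. In 29 of those 35 genes KO b was the highest KO library, against 49.0% of all ranked genes of the same WT order, and in 27 of them KO c was the lowest, against 39.7%. In the 14 genes of the reverse order, KO b was the lowest in 13 (background 46.8%) and KO c the highest in 10 (background 40.1%).

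Developmental timing genes had the highest median WT variance ratio of the 37 gene lists with at least 3 ranked members. Their median was 5.56 against 0.362 over all ranked genes, and 10 of 15 ranked members were in the highest 5% (background 5%, fixed by the rule). It stood 2nd at a minimum mean of 50, 4th at a minimum mean of 100, where liver genes stood 1st, and 12th without WT a, ranked on the difference between WT b and c. All gene lists were chosen with earlier results of these data known, so their order is a description and no test. The timing list was chosen as genes of the Lin28 and let-7 pathway, so its content of let-7 matches is not independent of the choice. The mature let-7 family shares 1 seed, and 3 of the 9 members in the RefSeq annotation (GRCm38.p6) are shown here, with the seed, bases 2 to 8, in capitals.
mmu-let-7a-5p: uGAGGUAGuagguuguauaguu
mmu-let-7g-5p: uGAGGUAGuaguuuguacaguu
mmu-miR-98-5p: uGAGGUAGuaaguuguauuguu

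The reverse complement of this seed, CTACCTC, was searched on the sense strand in the longest annotated 3′ untranslated region of each gene (GENCODE M21, GRCm38). It occurs in 1293 of 11794 ranked genes with such a region, a background of 11.0%. Among the 100 highest, 15 of 88 had a match (17.0%), and their regions were shorter than the rest, with a median of 754 against 1273 bases. Of the 15 genes highest in WT a without the shared b shift, 6 had a match (Igdcc3, Lin28a, Lin28b, Prtg, Sall4 and Greb1), in regions with a median of 2079 bases. Among those highest in WT b, 5 of 34 had a match (14.7%), namely Hic1, Col5a2, Col1a2, Col1a1 and Sumf2. Their group had shorter regions, with a median of 794 bases. A match is a string of letters and no measured site. The matches below are from uneven genes highest in WT a and from Hmga2, which has matches but little spread, with the match in capitals.
Lin28a, chr4:134005186-134005210, minus strand: cacagcctgttgaaCTACCTCattt
Lin28b, chr10:45381019-45381043, minus strand: cccgggcgggaagtCTACCTCatgc
Igdcc3, chr9:65185708-65185732, plus strand: gtgactctcagcacCTACCTCagcc
Prtg, chr9:72912559-72912583, plus strand: cctctgctgaatagCTACCTCagtt
Sall4, chr2:168748937-168748961, minus strand: gggctttaatttatCTACCTCaatt
Trim71, chr9:114512469-114512493, minus strand: acattgcctaagtcCTACCTCagct
Hmga2, chr10:120364221-120364245, minus strand: ccgacattcaatttCTACCTCagca

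Lin28a, the RNA-binding protein that blocks let-7 processing (chromosome 4, 133559245 to 133574756 in mm9), read 40.6, 4.75 and 9.84 CPM in WT a, b and c, a mean of 18.4 ± 19.4 (SD, n = 3). In KO a, b and c it read 11.7, 8.10 and 26.2 CPM, and 41.1 CPM in the Prep1 WT library against 10.8 CPM in the hypomorph. WT a and the Prep1 WT library were the high ones, and KO c was the highest of the KO group. Its paralogue Lin28b followed at 77.6, 17.6 and 28.9 CPM in WT a, b and c, 38.3, 25.5 and 56.5 CPM in KO a, b and c, and 78.1 and 35.0 CPM in the Prep1 pair.

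Igdcc3, a surface protein of the immunoglobulin superfamily made in early neural and mesodermal tissue (chromosome 9, 64988961 to 65033664 in mm9), had the widest spread of the list. It read 233, 26.6 and 45.2 CPM in WT a, b and c, a mean of 102 ± 114 (SD, n = 3). In KO a, b and c it read 74.4, 60.8 and 162 CPM, and 285 and 96.5 CPM in the Prep1 WT and hypomorph libraries. The same libraries were high as for Lin28a. Prtg, a related surface protein outside the list, read 42.4, 8.47 and 8.46 CPM in WT a, b and c, and Sall4, a zinc finger factor of pluripotent cells, read 34, 8.47 and 12 CPM.

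Trim71, a let-7 target that acts with Lin28 in timing, read 19.4, 3.92 and 6.62 CPM in WT a, b and c. Nr6a1, an orphan nuclear receptor of early trunk tissue whose 3′ region holds 8 matches, read 22.4, 5.99 and 8.92 CPM. Arid3b, an AT-rich DNA-binding factor, read 95.8, 42.3 and 53.1 CPM, and Igf2bp1, an RNA-binding growth gene, 372, 205 and 254 CPM. Of the 15 ranked members, 12 had the order b, c, a and 13 were highest in WT a (background 39.5%). Igf2bp2, Igf2bp3, Dnmt3b and Mycn spread less, with ratios from 0.985 to 2.52.

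Hmga2, a chromatin protein gene often cited as a let-7 target, did not share the pattern. With 4 matches in its 3′ region it read 516, 534 and 500 CPM in WT a, b and c, and its ratio of 0.0545 placed it 11668th. E2f5, a cell cycle factor with 1 match, was as even at 38.8, 39.7 and 38.6 CPM. Hmga1, a related chromatin protein gene, is the member with the shared b shift, at 175, 34.5 and 140 CPM in WT a, b and c. The list's median against the WT mean was 0.67, -0.49 and -0.17 on the log2 scale in WT a, b and c, with 0.05, -0.12 and 0.48 in KO a, b and c. Its median log2 ratio of hypomorph over WT in the Prep1 pair was -0.67, with 4 of 15 members past 2-fold (background 1.64%).

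**Figure D3:**
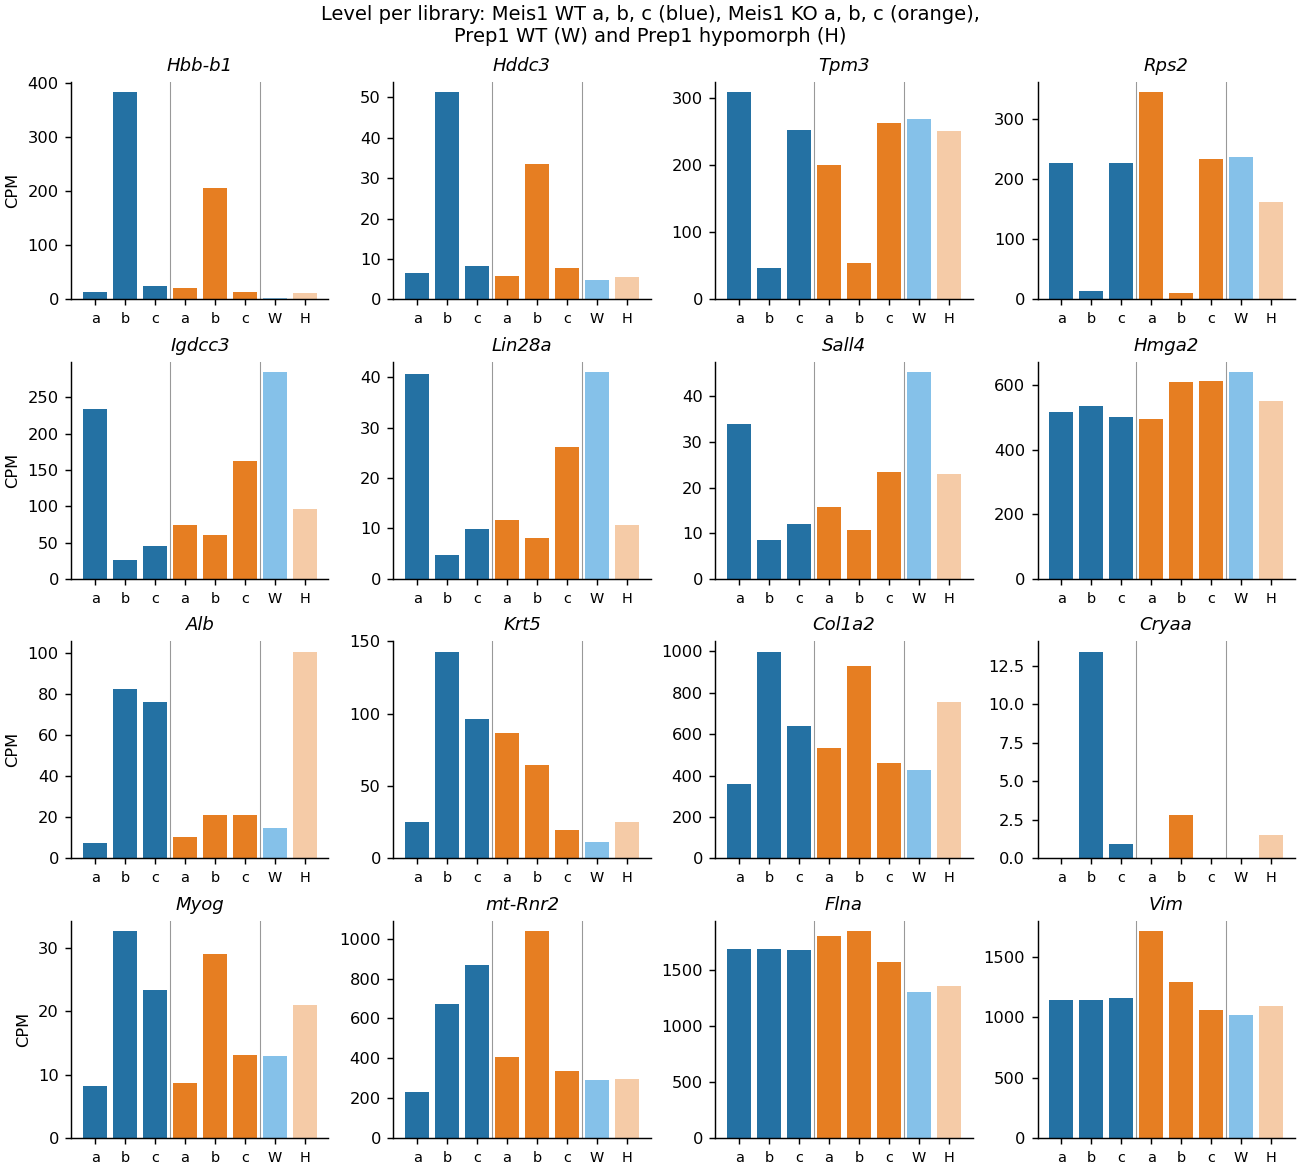
Level in CPM (vertical axes start at 0) of 16 genes in each library: Meis1 WT a, b and c in dark blue, Meis1 KO a, b and c in orange, the Prep1 WT library (W) in light blue and the Prep1 hypomorph (H) in pale orange. The upper row shows genes in which both b libraries stand apart, the next row timing genes with Hmga2 as an even member, the third row differentiation products, and the last row 2 more uneven genes and the even genes Flna and Vim.

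Genes of liver precursors and yolk sac endoderm were low in WT a and high in WT c. Of 18 ranked members, 11 were in the highest 5% and the median ratio was 3.40. WT a was the lowest library in 17 of 18 (background 36.5%). Fewer cells of a type and less RNA per cell cannot be told apart in whole embryos, here and below. Alb, the serum albumin gene of liver (chromosome 5, 90889915 to 90905629 in mm9), read 7.30, 82.4 and 76.3 CPM in WT a, b and c, a mean of 55.3 ± 41.7 (SD, n = 3). It read 10.5, 21.1 and 21.0 CPM in KO a, b and c, and 14.9 and 101 CPM in the Prep1 WT and hypomorph libraries. WT a, KO a and the Prep1 WT library were the low ones, and WT b and c lay above all 3 KO libraries.

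Afp, the fetal counterpart of albumin, read 59.3, 148 and 212 CPM in WT a, b and c, and Apoa1, the main protein of high-density lipoprotein, 5.47, 13.2 and 35.2 CPM. Trf, the iron carrier transferrin, read 16.9, 42.1 and 62.3 CPM, and 60.6% of its words also occur in the overlapping gene Srprb. Vtn, which encodes the adhesion protein vitronectin, was the most even member, at 38.1, 44.6 and 49.4 CPM. The order a, b, c held in 16 of the 18 (background 12.7%). The median of the list against the WT mean was -0.93, 0.24 and 0.65 on the log2 scale in WT a, b and c, with -0.62, -0.79 and 0.01 in KO a, b and c. In the Prep1 pair 12 of 18 members were past 2-fold (background 1.64%), with a median log2 ratio of 1.27.

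Collagens and fibroblast matrix genes had a median ratio of 3.46, with 15 of 24 ranked members in the highest 5% and 8 in the 100 highest. They were graded, 21 of 24 having the order a, c, b (background 23.8%). Col1a2, a chain of the main collagen of skin and bone, read 359, 1000 and 640 CPM in WT a, b and c, with 535, 931 and 459 CPM in KO a, b and c. Col1a1, the partner chain, read 238, 636 and 452 CPM in WT. Ogn, Lum and Dcn, small proteoglycans that bind collagen fibres, were the steepest. Ogn read 3.88, 41.3 and 12.3 CPM in WT a, b and c, Lum 53.4, 197 and 115 CPM, and Dcn 24.0, 99.1 and 49.8 CPM. Fbn2, the fibrillin of embryonic microfibrils, was even, at 299, 312 and 305 CPM. The list's median against the WT mean was -0.61, 0.56 and 0.06 on the log2 scale in WT, and -0.03, 0.22 and -0.29 in KO a, b and c.

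Cartilage genes were mixed. Col9a3 and Col9a2, chains of a cartilage collagen, read 4.79, 36.8 and 15.4 CPM and 13, 39.2 and 14 CPM in WT a, b and c. Matn4, a matrilin, had 0.228, 11.8 and 2.31 CPM. Hapln1, which links hyaluronan to proteoglycan and is made in heart cushions too, went the other way at 183, 60.9 and 110 CPM. Sox6, a factor of cartilage precursors, was even at 22.6, 22.7 and 24 CPM. Of 14 ranked members, 6 were in the highest 5%, and 3 of those had the shared b shift.

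Basal keratins behaved apart from the rest of the epidermis list. Krt5, the keratin of basal epidermal cells, read 25.3, 143 and 96.6 CPM in WT a, b and c, with 86.8, 64.8 and 19.8 CPM in KO a, b and c. Krt14, its partner, read 4.79, 51.6 and 24.6 CPM in WT, and Krt15, a related basal keratin, 4.11, 39.4 and 29.8 CPM. Krt14 also had the shared b shift. With Krt17 these were the 4 members of 25 in the highest 5%, and the list's median ratio was 0.641. Cldn7, a tight junction gene, was even at 8.44, 8.68 and 9.54 CPM. In KO the list's median ratio was 3.36.

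Cryaa, the alpha crystallin gene of the eye lens (chromosome 17, 31814878 to 31818667 in mm9), had 0, 65 and 6 counts across WT a, b and c, or 0, 13.4 and 0.923 CPM. In KO a, b and c it had 0, 14 and 0 counts, and in the Prep1 pair 0 (WT) and 9 (hypomorph). WT b and KO b were the highest of their groups, which puts Cryaa among the 73 genes above. A count of 0 in WT a leaves a low level undetected at this depth. Only 4 of 27 lens genes reached the minimum mean, and the other 3 were Cryab, Prox1 and Lctl, which other tissues also use, with ratios from 0.0661 to 0.960.

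Skeletal muscle genes had a median ratio of 1.46, with 7 of 26 in the highest 5%. Their directions were mixed: 17 were lowest in WT a (background 36.5%) and 8 highest in it (background 39.5%). The order a, c, b held in 14 (background 23.8%) and the reverse in 6 (background 26.6%). Myog and Myod1, the factors that commit myoblasts, read 8.21, 32.6 and 23.4 CPM and 0.912, 12 and 8 CPM in WT a, b and c. KO b was the highest KO library for both, at 29.0 and 15.2 CPM. Outside this list, Fabp7, a fatty acid binding protein of radial glia and Schwann cell precursors, read 63.4, 214 and 119 CPM in WT a, b and c, with 85.2 to 113 CPM in KO.

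Macrophage genes had a median ratio of 1.66, with 6 of 20 in the highest 5% and none among the 100 highest. WT a was the lowest library in 18 of 20 (background 36.5%). Of 15 genes of placenta and decidua, which could enter through tissue left on an embryo, 2 reached the minimum mean. Csf1r, the receptor for macrophage growth factor, read 22.8, 47.1 and 32.6 CPM in WT a, b and c, with 18, 27.5 and 22.4 CPM in KO. Their median KO ratio was 0.285, against 0.373 over all ranked genes.

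Blood genes split. Embryonic globins were lowest in WT b: Hbb-bh1 read 3072, 1326 and 2873 CPM and Hba-x 6922, 3644 and 5820 CPM in WT a, b and c. Hba-a1, an adult-type alpha globin, was highest in WT b, at 1294, 2402 and 1620 CPM, while its near-identical copy Hba-a2 was even (502, 420 and 580 CPM). Counts of Hbb-y could not be settled, and its deposited ratio is 2.66. Erythroid genes other than globins were lowest in WT b and had the order b, c, a in 20 of 38 (background 26.6%). Among them, Slc25a37, the mitochondrial iron importer, read 283, 117 and 200 CPM in WT a, b and c. Cpox, an enzyme of haem synthesis, read 132, 41.7 and 94.0 CPM. KO a was high for this list, with a median of 0.73 on the log2 scale against the WT mean. Hbb-bh1 and Cpox also had the shared b shift. In KO a, b and c, Hbb-bh1 read 5674, 1256 and 3193 CPM and Cpox 231, 44.55 and 124 CPM.

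Some lists of general function had a direction too, by less. Cell cycle genes had the order b, c, a in 24 of 36 and spliceosome genes in 24 of 42 (background 26.6%). Mki67, a marker of dividing cells, read 1187, 554 and 1029 CPM in WT a, b and c. The medians against the WT mean were 0.18, -0.22 and 0.06 on the log2 scale for cell cycle genes, and 0.10, -0.10 and -0.00 for spliceosome genes. Nuclear genes of the respiratory chain went the other way, with the order a, c, b in 28 of 51 (background 23.8%) and medians of -0.17, 0.12 and 0.05. Hox genes of groups 1 to 4, which pattern the hindbrain and neck, were highest in WT a in 9 of 10 (background 39.5%, median ratio 0.580). Groups 9 to 13, which pattern the posterior trunk and limbs, had medians of -0.22, 0.30 and -0.17 in WT a, b and c.

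Mitochondrially encoded ribosomal RNAs were uneven. mt-Rnr2 read 232, 670 and 866 CPM in WT a, b and c, with 406, 1038 and 334 CPM in KO a, b and c. mt-Co3, a subunit of cytochrome oxidase, had 56, 0 and 107 counts across WT a, b and c and 92, 120 and 0 across KO a, b and c, so that the library at 0 was b in one group and c in the other.

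**Figure D4:**
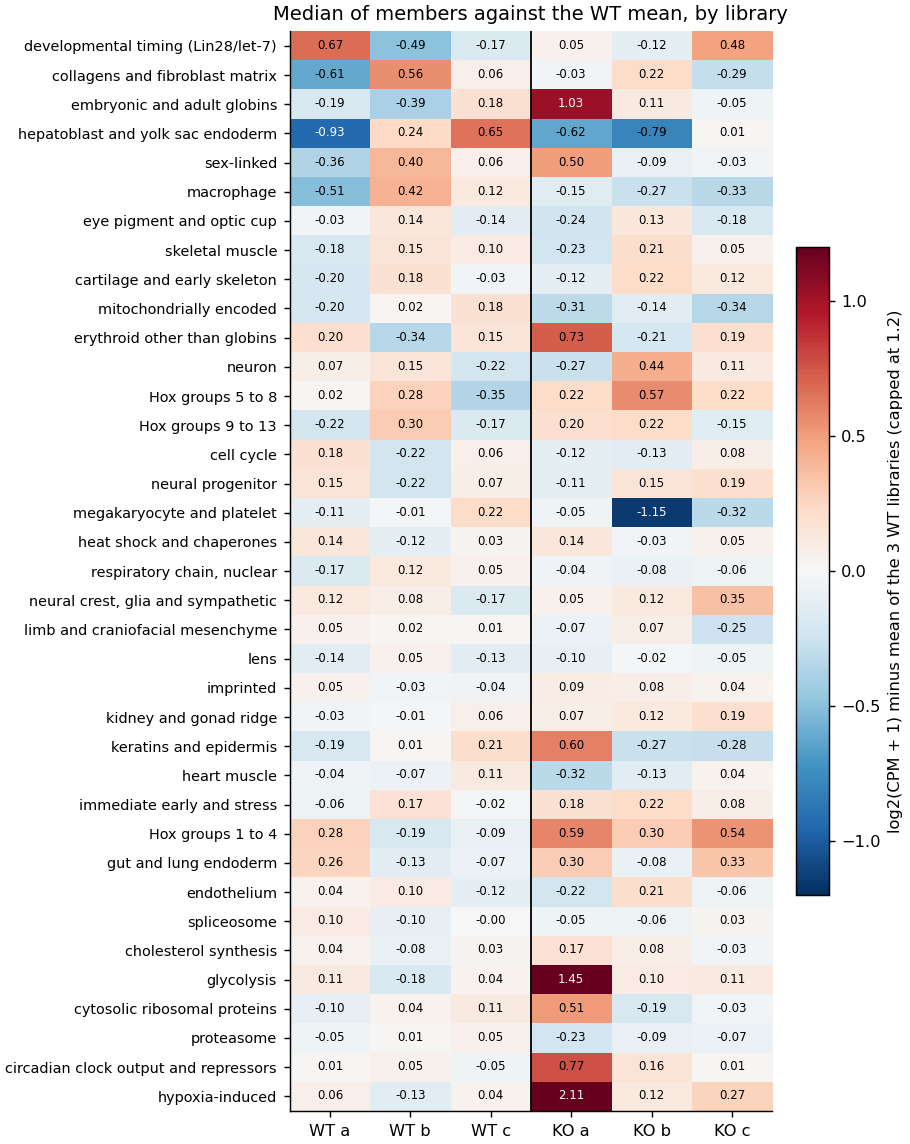
Median over the members of each gene list of log2(CPM + 1) minus the mean of the 3 WT libraries, by library. Lists are ordered from the highest to the lowest median WT variance ratio. WT a is high for developmental timing (0.67) and low for liver and yolk sac (-0.93) and matrix genes (-0.61), and KO a alone is high for hypoxia-induced genes (2.11).

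The most abundant of the 100 lowest are genes used in many tissues. Among the 100 lowest, the median gene had 1.02 times the level in its highest as in its lowest WT library. Flna, which encodes the actin crosslinker filamin A, read 1682, 1686 and 1677 CPM in WT a, b and c. Vim, the intermediate filament of mesenchyme, read 1147, 1147 and 1162 CPM in WT, but 1715, 1290 and 1058 CPM in KO a, b and c. Ctnnd1, a catenin of cell junctions, read 219, 219 and 221 CPM and Hnrnpl, a splicing factor, 491, 498 and 501 CPM. Usp47, Rbmx, Zfp148, Phc2, Ehd1 and 2510006D16Rik complete the 10 most abundant. Of these 100 genes, 3 were in the lowest 5% of KO ratios and 2 in the highest 5%, and their median KO ratio was 0.283 against 0.373 over all ranked genes.

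By list, the lowest median ratios were those of hypoxia-induced genes (0.208) and circadian clock genes (0.239). Next came proteasome genes (0.362), at the median of 0.362 over all ranked genes, and cytosolic ribosomal proteins (0.411), above it. No hypoxia-induced member of 21 and no proteasome member was in the highest 5%. In the KO group the median ratio was 16.5 for hypoxia-induced genes, 1.19 for clock genes (5 of 14 in the highest 5% of KO ratios), 0.174 for proteasome genes and 1.72 for ribosomal proteins (19 of 57). Glycolysis genes, at 0.430 in WT, had a median of 13.1 in KO. KO a was the high library for hypoxia-induced and glycolysis genes. The WT ratio divides by a variance read at the mean over both groups, which high KO levels raise. Recomputed at the WT mean with counting noise averaged, the WT median was 0.472 for hypoxia-induced and 0.787 for glycolysis genes. Over all ranked genes it was then 0.492, with clock genes at 0.370 and proteasome genes at 0.383. Slc2a1, the glucose transporter induced by low oxygen, read 204, 144 and 161 CPM in WT and 805, 179 and 196 CPM in KO a, b and c. Ribosomal protein genes had a median near that of all ranked genes but 9 of 57 members in the highest 5%, and several of those are genes with close copies.

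**Figure D5:**
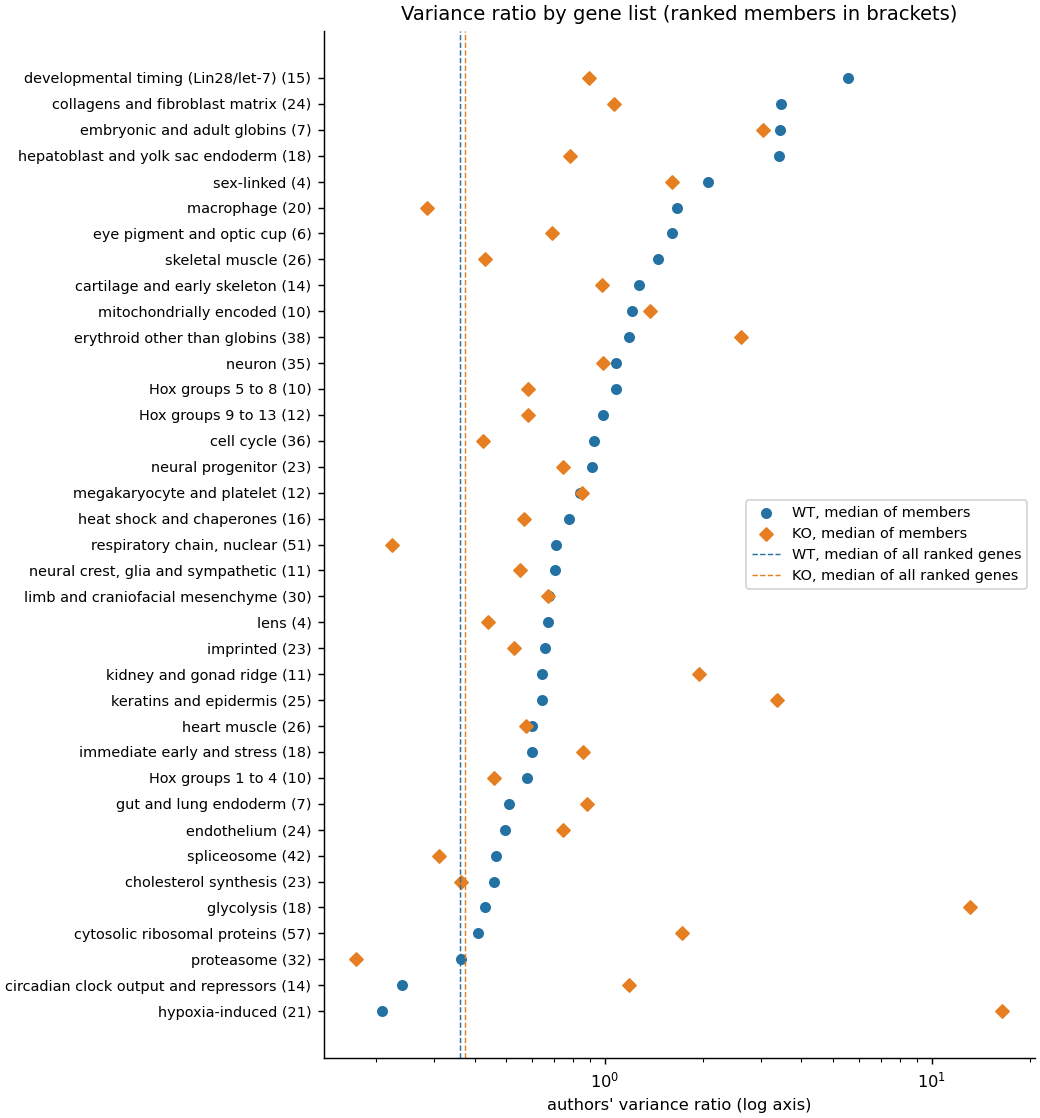
Median variance ratio of each gene list in WT (blue circles) and KO (orange diamonds) on a log axis, with the number of ranked members in brackets and dashed lines at the median of all ranked genes (0.362 and 0.373). Developmental timing, matrix, globin and liver lists are the 4 highest in WT. Hypoxia-induced and glycolysis genes are lowest or near the lowest in WT but highest in KO (16.5 and 13.1). Recomputed at the WT mean, their WT medians are 0.472 and 0.787, against 0.492 over all ranked genes.

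Many of these genes were uneven between the KO libraries too. Of the 100 genes with the highest WT ratio, 61 were in the highest 5% of KO ratios, against 5% of all ranked genes by construction. The ratio of each group divides by a fitted variance read at the mean over both groups, so the 2 ratios are not wholly separate measures. Without the genes of the shared b shift, 26 of the 62 remaining genes were in the highest 5%, with a background of 4.55%. The result leaned on KO b: ranked on the difference between the other KO libraries among genes of like mean, 13 of the 100 were in the highest 5% without KO b, 83 without KO a and 46 without KO c.

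The Prep1 pair gave a second look in libraries the ranking did not use, with 1 library on each side and no replicate check. Among the 100 genes, 91 had 20 counts or more in one of the libraries, and 32 of these (35.2%) differed at least 2-fold, 23 higher and 9 lower in the hypomorph. The background was 1.64% of 12911 ranked genes. Among genes of the order a, c, b without the shared b shift, 11 of 33 were at least 2-fold higher in the hypomorph and none lower, with a median log2 ratio of 0.82. Of the 14 of the reverse order, 4 were at least 2-fold lower and 1 higher, with a median of -0.77. The median over all ranked genes was -0.01. The Prep1 genotype and differences between embryos cannot be told apart here.

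Against this spread the Meis1 genotype gave no edgeR call among those of these genes that were tested. In edgeR's quasi-likelihood test over 14495 genes, none passed a false discovery rate (FDR) of 0.05 (0.00%), 228 (1.57%) had an unadjusted p under 0.05, DESeq2 called 1 gene (Ppbp) and limma-voom 0. Of the 100 highest, 92 passed the filter on low counts, and all had an adjusted p of 0.9999 with edgeR's quasi-likelihood test. Alb and Apoa1 were the 2 of 92 with an unadjusted p under 0.05 in that test. Gm1821, Gm5506 and Cryaa did not pass the filter and were not tested. Alb differed by -1.66 (SE 0.64) and Igdcc3 by -0.02 (SE 0.67) on the log2 scale between KO and WT. Of the 100, 6 have an adjusted p under 0.1 in the authors' deposited table (Gm1821, Alb, Gm5506, Cryaa, Apoa1 and Krt15), where 0.359% of ranked genes do. That contrast uses the same WT libraries as the ranking, so nothing is read from the count.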

How the data were processed

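RNA of whole embryos was sequenced as single-end reads, and transcript abundance was estimated with RSEM on mm9, per the submitters' processing notes. No source used here gives the RSEM version. For the Meis1 experiment the authors deposited, per the file headers, a signal per gene (the mean over each group of counts divided by library size factors), a variance ratio per group and a p-value with its adjusted form. The Prep1 table holds estimated counts deposited per library as whole numbers, with 0 written as 0.1. No file lists the Meis1 counts by library.

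The whole counts behind each group mean were therefore worked back, since every mean is a sum of whole counts times 1 fixed step per library. In WT, 18852 of 18904 genes had a single solution, 49 more were settled by the variance ratio and 3 were not; in KO the numbers were 18850, 51 and 3. Wrong steps gave a solution for 0% of 300 genes. The deposited ratio equals the variance of the scaled counts over a fitted variance, read at the mean of both groups, plus a counting term summed over the libraries. The ratios of low genes are therefore lower than usual, and the WT median was 0.492 when recomputed at the WT mean with that term averaged.

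Of 18941 entries, 37 repeated an id and were dropped. Counts were tested with edgeR 4.0.16 (quasi-likelihood, TMM, Benjamini-Hochberg over all genes) in R 4.3.3, with DESeq2 1.42.0 and limma 3.58.1 as alternatives, after a check on simulated data. Prep1 log2 ratios used a prior count of 2. The design assumed that counts might have to be worked back, and it was kept. Members and gene lists were chosen with earlier results of these data known. Named genes were taken from the 30 with the highest ratio, the 10 most abundant of the 100 lowest, the marker genes Alb, Igdcc3, Lin28a and Cryaa, all timing and sex-linked members, up to 4 of the highest and the lowest of each list, and the genes at each edge. Meis1, Xist, Col1a1, Col1a2, Hba-x, Hbb-y, Greb1 and the genes of the copy pairs outside this rule were chosen after their values were seen. Copies were found as shared words of 31 bases between GENCODE M21 transcripts. At these depths a low count limits precision, and counting error alone is covered.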

Additional observations from a re-analysis of the deposited data

How the results depend on the processing

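Settings that leave out the genes with the shared b shift or recompute the variance ratio were chosen after seeing the data. Of the 100 genes with the highest WT ratio, 61% were in the highest 5% of KO ratios. Under the settings that keep all KO libraries this share was 43% to 80%. These settings include the 50 highest genes (80%), the 200 highest (47%) and a cutoff at the highest 10% of KO ratios (73%). The share was 13% to 83% when each KO library was left out in turn. The share past 2-fold in the Prep1 pair, 35.2%, ranged from 25.5% to 47.7%. WT a was the farthest library in 42% to 56% of the genes, WT b in 38% to 54% and WT c in 4% to 6%. Of the 10 lists with the highest median WT ratio, 6 stayed among the 10 at a minimum mean of 100, 6 to 8 when each WT library was left out in turn, and 7 to 10 otherwise. DESeq2 called 1 gene between KO and WT, and the other settings run called 0. With 3 libraries in each group, the cause of these moves was not tested. No paired analysis was possible because the labels give no shared numbers and the libraries worked back from the group means cannot be tied to sample codes. A replicate block of WT b with KO b, added after the shared b shift was seen, called 0 genes (364 at an unadjusted p under 0.05), and edgeR without both b libraries called 0 (336).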
